A study of Mus musculus with 12 samples.

Results

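The genes described here encode liver-made proteins of the complement and blood clotting systems, together with their inhibitors. They were chosen by name, as 40 genes in 6 roles, with C1q and fibrinogen genes left out. The platform annotation paired 36 of the 40 with a probe set, among 15780 genes with a named probe set in the whole series, and C3, C4b, Cfd and Kng1 were not analysed here. Livers of 12 mice were profiled on Affymetrix arrays, 1 array per mouse, with 3 mice in each of 4 groups.

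The first group was Met knockout mice that had received 2 µg of recombinant mouse hepatocyte growth factor (HGF) into the peritoneum 2 h before, and the second was unstimulated Met knockout mice. The third was control mice given the same HGF injection, and the fourth was unstimulated control mice. In all animals the HGF receptor gene Met was flanked by loxP sites, and in the knockouts a Cre transgene removes it in hepatocytes. That transgene was driven either by regulatory sequences of the albumin and alpha-fetoprotein genes, active in the embryo, or by the albumin promoter, active from 2 weeks after birth. The labels do not say which of them each array represents, nor the age or sex of the mice. Liver cells in which the transgene was never active keep the receptor, and which cells these are was not measured here. Whether the unstimulated mice had been given a saline injection or none is not known here. The array numbers in the labels run from 1 to 6 for controls and from 7 to 12 for knockouts, so genotype and array number cannot be told apart.

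Complement is a cascade of plasma proteins that marks and perforates microbes. It starts by the classical, lectin or alternative route and ends in the membrane attack complex, and soluble and membrane-bound regulators hold it back from host cells. Clotting is a parallel cascade of serine proteases and cofactors that ends in thrombin and fibrin, opposed by serpins, the protein C system and plasmin. Hepatocytes secrete most proteins of both cascades, while properdin (Cfp) comes largely from myeloid cells and factor VIII (F8) from endothelial cells.

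All values below are log2(intensity + 1) of the deposited probe set intensities, and differences are on that scale, the first-named group minus the second. A gene was called at a limma p under 0.05 after Benjamini-Hochberg adjustment over all 6683 tested probe sets, and n is 3 mice per group. The p-values set a difference between groups against the spread between these livers. They cannot separate genotype from array number, or from housing or breeding, on which the labels are silent.

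Met transcript did not separate the genotypes. Met was at 6.61, 7.40 and 6.29 in knockout livers with HGF and at 7.06, 6.68 and 7.18 in knockout livers without it. It was at 6.59, 6.78 and 7.02 in control livers with HGF and at 6.62, 6.84 and 6.77 in control livers without it. Averaged over both conditions, knockouts differed from controls in Met by 0.10 (SE 0.18, limma adjusted p = 0.872). Whether the probes lie in the deleted part is not known here, so this does not check the labels.

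The tissue label fitted its markers: all 10 hepatocyte markers with a probe set passed the filter, and Alb lay between 14.43 and 14.54 on every array. Cholangiocyte markers (5 of 6 with a probe set) were below the filter, as were 5 of 6 measured platelet markers and 4 of 7 measured adipocyte markers. Of the others measured, 6 of 9 stellate cell and 1 of 2 erythroid markers passed it. The tested probe sets other than the 36 genes gave each array a response index, scaled so that control livers average 1 with HGF and 0 without it. Knockout replicates 1 to 3 lay at 0.32, 0.02 and 0.94 with HGF and at 0.12, 0.98 and 0.04 without HGF. Knockout replicate 2 without HGF thus stood with the HGF-treated controls, at 0.88 to 1.06, and knockout replicate 2 with HGF stood with the unstimulated controls, at -0.06 to 0.07. Many of the results that rest on knockout arrays are given with and without these 2 arrays, which were picked with their values known.

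Most of the 36 genes varied little across the 12 livers. All 36 lay above the filter value of 4 on every array, between 4.73 and 13.10, so the filter chose none of them through 1 group. Their range over the 12 arrays had a median of 0.56, and it was below 1 for 30 genes (83.3%), against a median of 0.81 and 63.2% for all tested probe sets. The thrombin inhibitor antithrombin (Serpinc1) had the smallest range, 12.89 to 13.10, and prothrombin (F2) ranged from 12.39 to 12.72. The largest ranges belonged to C6, Cd55 and Cd59a, at 1.95, 1.84 and 1.80. C6 encodes a component of the membrane attack complex, and its range came from control replicate 1 with HGF, at 8.19, while the other 11 arrays lay between 9.10 and 10.14. The spread of a probe set also depends on its intensity, and the median intensity was 10.94 for the 36 genes against 6.70 for all tested probe sets. Cd55 (4.73 to 6.57) and F8 (4.92 to 5.83) lay close to the filter value.

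**Figure D1:**
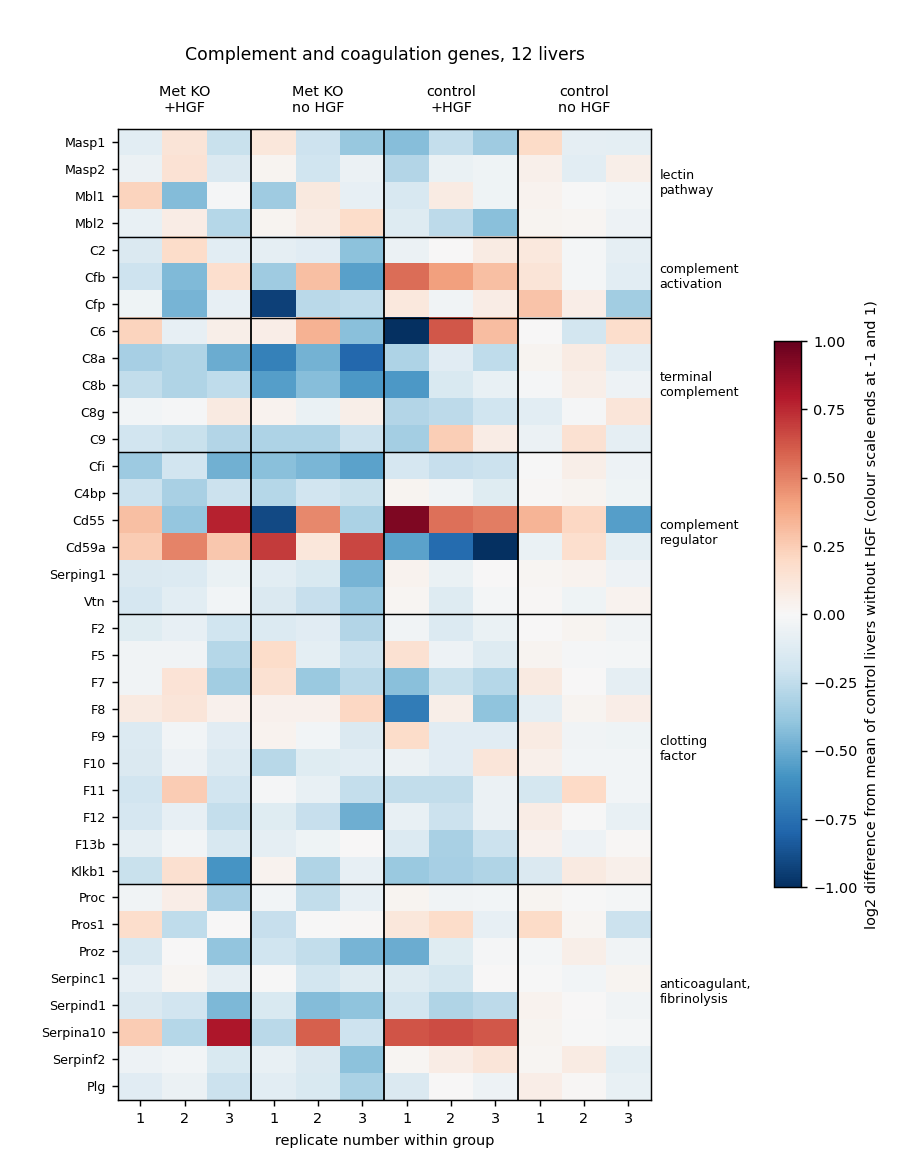
Difference of each of the 36 genes (rows, grouped by role) on each of the 12 arrays (columns, grouped by genotype and HGF, numbered by replicate) from the mean of the 3 control livers without HGF, in log2 units. Most cells are pale. Serpina10 stands out as higher in control livers with HGF and in knockout replicate 3 with HGF and replicate 2 without it. C8a, C8b and Cfi stand out as lower in knockout livers without HGF, while after HGF the genotypes overlapped for each of them.

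The upstream sequences of 4 genes are shown because their values differed between the genotype groups in different ways, as described below. With all 12 arrays at equal weight, limma called none of the 4 between genotypes. C8a and C8b, neighbours in the RefSeq gene order with no gene listed between them, had lower values in unstimulated knockouts. C4bp was lower on every knockout array than on every control array. Cd59a had higher means in the knockouts, with overlapping groups in unstimulated livers. Each sequence runs 5′ to 3′ on the gene's strand, from 250 to 91 bases before the transcript start, from RefSeq on build GRCm38.p6. They lie at chr4:104876489-104876648 (minus strand, C8a), chr4:104766067-104766226 (plus strand, C8b), chr1:130661709-130661868 (minus strand, C4bp) and chr2:104095551-104095710 (plus strand, Cd59a). Capitals mark matches on either strand to GTTAAT (HNF1 half-site), TTNNGNAA (C/EBP) or TTCNNNGAA (STAT), and an NF-kappaB motif was searched too.
C8a: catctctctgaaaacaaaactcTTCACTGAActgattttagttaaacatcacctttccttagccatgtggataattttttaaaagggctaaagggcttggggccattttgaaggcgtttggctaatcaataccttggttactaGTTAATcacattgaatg
C8b: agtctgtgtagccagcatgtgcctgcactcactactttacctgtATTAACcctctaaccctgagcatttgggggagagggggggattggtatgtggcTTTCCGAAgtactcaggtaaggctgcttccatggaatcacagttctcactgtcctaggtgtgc
C4bp: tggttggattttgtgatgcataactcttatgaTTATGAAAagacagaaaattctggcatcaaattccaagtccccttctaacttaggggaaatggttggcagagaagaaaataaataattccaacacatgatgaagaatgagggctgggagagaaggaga
Cd59a: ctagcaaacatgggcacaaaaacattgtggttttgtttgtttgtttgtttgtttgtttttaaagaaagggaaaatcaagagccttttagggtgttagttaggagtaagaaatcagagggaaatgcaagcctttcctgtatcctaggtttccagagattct
C8a and C8b each held 1 match to GTTAAT, which 4.24% of all 32851 RefSeq promoter windows of this stretch hold. C8a also held TTCNNNGAA (4.71% of windows), and C8b and C4bp each held TTNNGNAA (27.5% of windows). None of these 4 windows held the NF-kappaB motif (2.69% of windows), and that of Cd59a held no match to any of these motifs. No matches overlapped. A match describes letters only, and 30 of the 40 genes had an entry in the promoter table.

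In unstimulated livers, 31 of the 36 genes had lower means in the knockouts than in the controls, and the lowest differences were those of C8a, C8b, Cfp and Cfi. No gene passed limma over all tested probe sets, where 0.0599% were called. At an unadjusted p under 0.05, 9 genes were lower and 1 was higher, against 6.72% and 4.1% of all tested probe sets. The knockout arrays lay wholly below the control arrays for 14 genes and wholly above for 1, against 12.1% and 6.61% of all tested probe sets. The median difference of the 36 genes was -0.17, against -0.03 over all tested probe sets, of which 54.9% were negative. Without both knockout replicate 2 arrays the median was -0.21 with 32 genes negative, against 0.004 over all, and it lay between -0.21 and -0.12 when each array was left out in turn. Stellate cell markers moved with this comparison: all 6 tested of 9 measured had higher means in unstimulated knockouts, 4 of them at an unadjusted p under 0.05, while Col1a1, Des and Ngfr were below the filter. Their summed log2 intensity was 11.22 to 11.54 in knockout livers without HGF, against 10.84 to 11.10 in control livers without HGF, and their part in the values of the 36 genes was not tested.

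The membrane attack complex inserts C8 and C9 into a target membrane, and C8a and C8b encode the alpha and beta chains of C8. C8a was at 11.48, 11.69 and 11.38 in knockout livers without HGF (replicates 1 to 3), against 12.18, 12.24 and 12.05 in control livers without HGF. Every knockout value lay below every control value. The difference was -0.64 (SE 0.11, 95% interval -0.90 to -0.39, limma adjusted p = 0.0848). Without both knockout replicate 2 arrays it was -0.73 (SE 0.12) and called, at an adjusted p = 0.0188 in a fit that called 2.69% of tested probe sets. C8b was at 10.58, 10.71 and 10.56 in knockout livers without HGF, against 11.12, 11.19 and 11.08 in control livers without HGF. These groups did not overlap either, with a difference of -0.52 (SE 0.13, limma adjusted p = 0.172), and -0.56 without both knockout replicate 2 arrays. C8g, which encodes the gamma chain, did not share the difference (0.01, SE 0.09, 95% interval -0.20 to 0.22). C9, which forms the pore, was lower in knockouts by a mean of -0.28 (SE 0.14, limma adjusted p = 0.534), with no overlap between the groups.

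Among the regulators, 5 of 6 had lower means in unstimulated knockouts and Cd59a had a higher one. Factor I (Cfi) is the protease that cleaves C3b and C4b, and it was at 11.87, 11.83 and 11.75 in knockout livers without HGF. It was at 12.28, 12.34 and 12.23 in control livers without HGF, above every knockout value. The difference was -0.47 (SE 0.10, limma adjusted p = 0.124), and -0.48 (SE 0.10, limma adjusted p = 0.0481) without both knockout replicate 2 arrays. C4b-binding protein (C4bp), a cofactor of factor I, differed by -0.23 (SE 0.09), C1 inhibitor (Serping1) by -0.24 (SE 0.11) and vitronectin (Vtn), which blocks the terminal complex, by -0.25 (SE 0.10). None of these 3 passed limma (adjusted p of 0.346, 0.451 and 0.376), and their groups did not overlap.

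Clotting genes differed less between unstimulated genotypes than the terminal complement genes did in their medians. The 10 clotting factors had a median difference of -0.11, with 9 negative and a range of -0.28 to 0.10, and the 8 anticoagulant and fibrinolysis genes a median of -0.15 with 7 negative. Factor XII (F12), which starts the contact pathway, had the lowest value among the clotting factors (-0.28, SE 0.11, limma adjusted p = 0.395). Heparin cofactor II (Serpind1), an inhibitor of thrombin, had the lowest among the anticoagulants (-0.33, SE 0.11, limma adjusted p = 0.316). Prothrombin (F2) differed by -0.18 (SE 0.09) and plasminogen (Plg) by -0.19 (SE 0.10), both with lower values on all 3 knockout arrays than on any control array. The median over the 5 terminal complement genes was -0.28, which is the value of C9. Of these genes, C6 differed by -0.002 (SE 0.42) and C8g by 0.01 (SE 0.09), while C8a and C8b had the lower values given above. These medians describe each group, and the difference between roles was not tested.

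Properdin (Cfp), which stabilises the alternative C3 convertase, was at 6.10, 6.77 and 6.79 in knockout livers without HGF, against 7.32, 7.10 and 6.70 in control livers without HGF. These groups overlapped (difference -0.49, SE 0.22, limma adjusted p = 0.451). The difference was -0.26 without knockout replicate 1 without HGF, and -0.59 without both knockout replicate 2 arrays. After HGF, Cfp was at 6.99, 6.58 and 6.95 in knockout livers, against 7.15, 7.01 and 7.12 in control livers. Those groups did not overlap (difference -0.25, SE 0.21), and the difference was -0.11 without both knockout replicate 2 arrays. Macrophage markers (11 of 12 with a probe set, all tested) had a summed log2 intensity of 11.49 to 12.12 in knockout livers without HGF, against 11.85 to 12.44 in control livers without HGF. Their part in the Cfp value was not tested. In whole liver, fewer cells of a type and less RNA per cell cannot be told apart.

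With HGF, the knockout livers differed from the controls most in Cd59a, which encodes a membrane protein that blocks assembly of the attack complex. It was at 8.64, 8.88 and 8.65 in knockout livers with HGF, against 7.85, 7.62 and 7.28 in control livers with HGF. The groups did not overlap, with a difference of 1.14 (SE 0.19, 2.21-fold, 95% interval 0.72 to 1.56, limma adjusted p = 0.337), and 1.06 without both knockout replicate 2 arrays. In unstimulated livers Cd59a was at 9.08, 8.50 and 9.06 in knockouts, against 8.32, 8.55 and 8.29 in controls. There the groups overlapped through knockout replicate 2, with a difference of 0.49 (SE 0.19, limma adjusted p = 0.379), and 0.68 without both replicate 2 arrays. Averaged over both conditions the difference was 0.82 (SE 0.13, limma adjusted p = 0.0961). It was 0.87 (SE 0.12, limma adjusted p = 0.0232) without both knockout replicate 2 arrays, in a fit that called 0.853% of tested probe sets. Without only the one from an unstimulated liver it was 0.91 (SE 0.11, limma adjusted p = 0.0282). That array was the lowest knockout array for Cd59a, at 8.50, so leaving it out by itself raises the difference. Leaving out any other single array gave no call. Cd59a has a paralog, Cd59b, next to it in the RefSeq gene order, which was not analysed here, and whether the probes tell the 2 transcripts apart is not known.

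**Figure D2:**
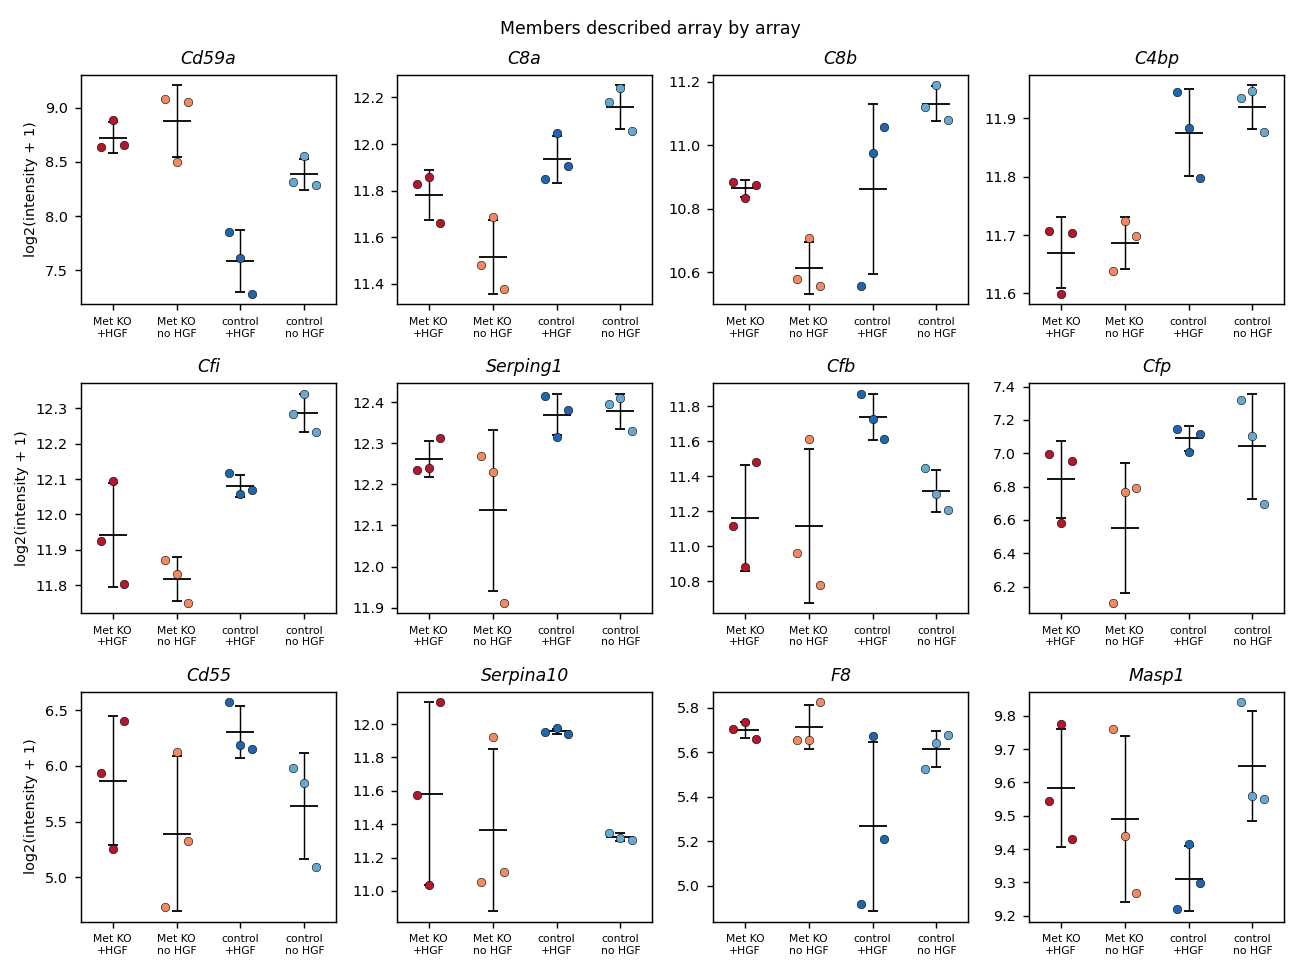
log2(intensity + 1) on each array (points) with the mean and SD (bars, n = 3) for 12 genes in the 4 groups, each panel with its own axis that does not start at 0. Cd59a is lowest in control livers with HGF, C8a and C8b are lowest or near lowest in knockout livers without HGF, and every knockout value of C4bp lies below every control value.

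No gene was called by limma in the comparison of knockouts with controls after HGF, where 0.015% of tested probe sets were. At an unadjusted p under 0.05, 3 genes were higher and 2 lower, against 5.3% and 4.28% of all tested probe sets. The groups did not overlap for 3 higher and 5 lower genes, against 8.81% and 6.08%. The median was -0.05, against 0.04 over all tested probe sets. Limma again called 0 of the 36 genes without both knockout replicate 2 arrays, and 0.0299% of tested probe sets. C8a differed by -0.15 (SE 0.11) and C8b by 0.001 (SE 0.13) after HGF. C8g was higher in knockouts (0.27, SE 0.09, limma adjusted p = 0.484), with no overlap.

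Factor B (Cfb), the protease subunit of the alternative C3 convertase, was at 11.11, 10.88 and 11.48 in knockout livers with HGF, against 11.87, 11.73 and 11.61 in control livers with HGF. Every knockout value lay below every control value, and the difference was -0.58 (SE 0.22, limma adjusted p = 0.496), and -0.44 without both knockout replicate 2 arrays. Decay-accelerating factor (Cd55), which dissociates C3 convertases on host cells, was at 5.94, 5.26 and 6.41 in knockout livers with HGF, against 6.57, 6.19 and 6.15 in control livers with HGF. These groups overlapped (difference -0.44, SE 0.39, limma adjusted p = 0.704). The Cd55 difference was -0.13 without knockout replicate 2 and -0.71 without knockout replicate 3. Serpina10, described below, differed by -0.37 (SE 0.27), by -0.10 without knockout replicate 2 and by -0.65 without knockout replicate 3.

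Factor VIII (F8) is the cofactor of factor IX, and it was at 5.70, 5.73 and 5.66 in knockout livers with HGF, against 4.92, 5.67 and 5.21 in control livers with HGF. The groups overlapped at control replicate 2, and the difference was 0.43 (SE 0.16, limma adjusted p = 0.496). It was 0.26 without control replicate 1 with HGF, and 0.42 without both knockout replicate 2 arrays. Sinusoidal endothelial markers (11 of 11 with a probe set, Cdh5 below the filter) had a summed log2 intensity of 10.90 to 11.21 in knockout livers with HGF and 10.84 to 11.23 in knockout livers without it. The sum was 10.70 to 10.75 in control livers with HGF and 11.06 to 11.09 in control livers without it. Their part in the F8 value was not tested.

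C4bp and Serping1 were the 2 genes whose 6 knockout arrays all lay below all 6 control arrays, and for 0 genes they lay above, against 0.374% of tested probe sets each way. They were singled out after their values were seen. C4bp was at 11.71, 11.60 and 11.70 in knockout livers with HGF and at 11.64, 11.72 and 11.70 in knockout livers without it. It was at 11.94, 11.88 and 11.80 in control livers with HGF and at 11.94, 11.95 and 11.88 in control livers without it. The averaged difference of C4bp was small, -0.22 (SE 0.06, 0.859-fold, limma adjusted p = 0.253). That of Serping1 was -0.17 (SE 0.08, limma adjusted p = 0.519), where the highest knockout and the lowest control value both round to 12.31.

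Averaged over both conditions, limma called none of the 36 genes, and it called 0.015% of tested probe sets. At an unadjusted p under 0.05, 10 genes were lower in knockouts and 2 were higher, against 4.91% and 4.47% of all tested probe sets. The median was -0.12, against 0.001 over all tested probe sets, and -0.15 without both knockout replicate 2 arrays. The averaged differences were -0.40 (SE 0.08, limma adjusted p = 0.157) for C8a, -0.30 (SE 0.07, limma adjusted p = 0.179) for Cfi and -0.39 (SE 0.15, limma adjusted p = 0.465) for Cfb. Those of Cfi and Cfb were -0.35 and -0.44 without both knockout replicate 2 arrays. Without both knockout replicate 2 arrays, limma called Cd59a as given above and C8a at -0.46 (SE 0.08, adjusted p = 0.0487), while 0.853% of tested probe sets were called. All 8 anticoagulant and fibrinolysis genes had negative averaged differences, between -0.18 and -0.03, against 49.8% negative over all tested probe sets.

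**Figure D3:**
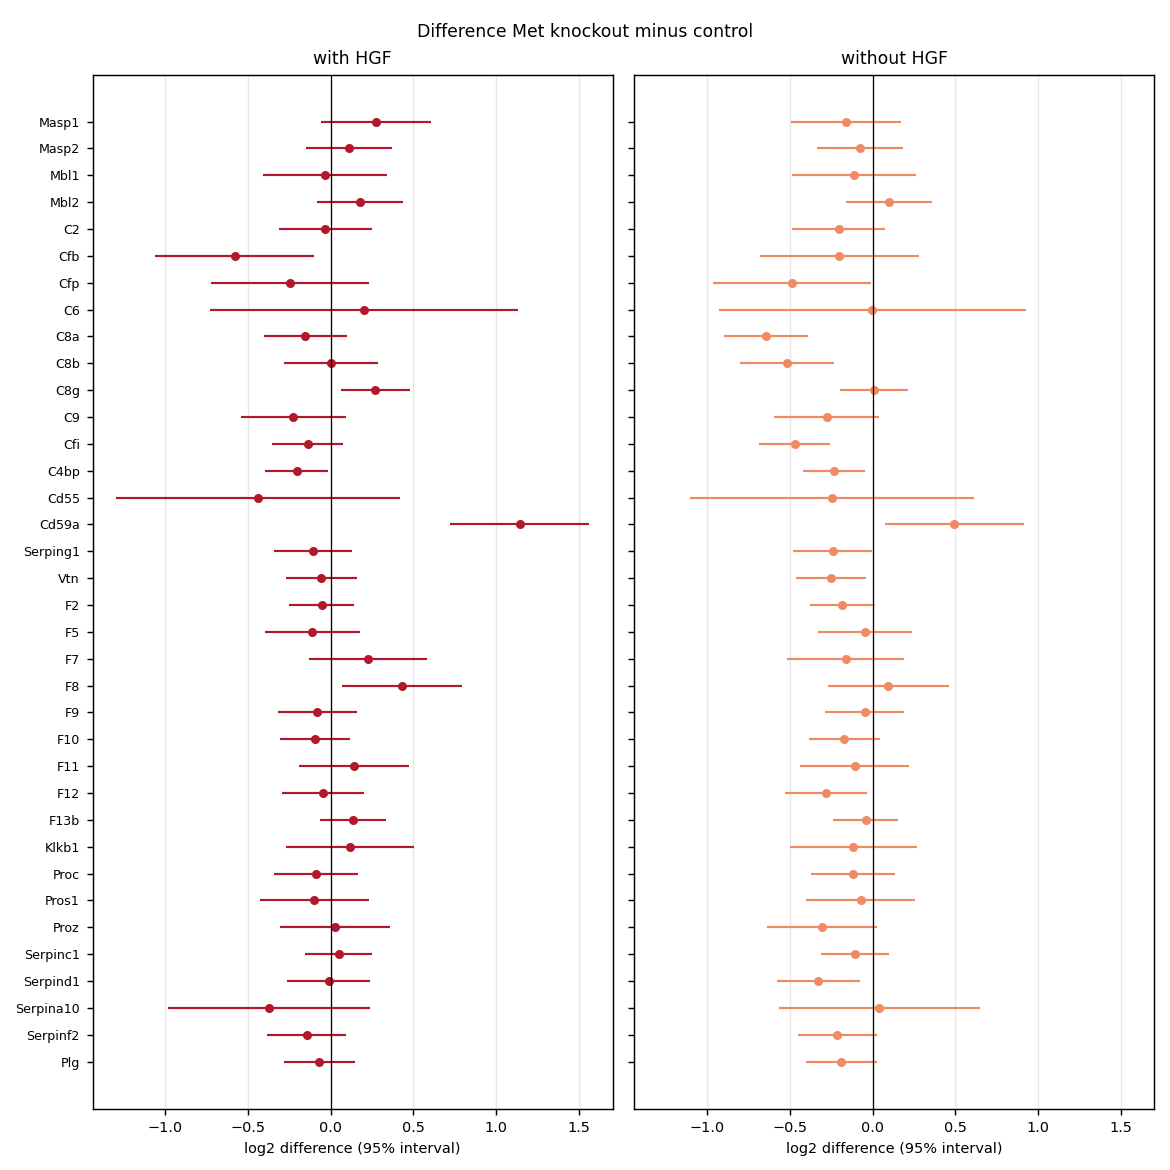
Knockout minus control difference (log2) with its 95% interval for the 36 genes, after HGF (left) and without HGF (right). After HGF, Cd59a lies at 1.14. Without HGF, C8a, C8b, Cfp and Cfi lie at -0.64, -0.52, -0.49 and -0.47 and Cd59a at 0.49. There 31 of the 36 genes lie below 0.

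In control livers 2 h after HGF, Serpina10 and Cfb were higher on all 3 arrays, and Cd59a was lower on all 3. Limma with the spread pooled over all 4 groups called none of the 36 genes, and called 0.404% of all tested probe sets. At an unadjusted p under 0.05, 1 gene was higher and 5 were lower, against 8.95% and 10.6% of all tested probe sets. The HGF arrays lay wholly above the others for 3 genes and wholly below for 12, against 14.1% and 23.7% of all tested probe sets. The median difference of the 36 genes was -0.09 with 29 negative, and that of all tested probe sets was also -0.09, with 64.4% negative. With the 2 control groups fitted alone, limma called Serpina10 and Cd59a among the 36 genes, and 12% of all tested probe sets. It called the same 2 genes without both knockout replicate 2 arrays, in a fit that called 8.16% of tested probe sets.

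Protein Z-dependent protease inhibitor (Serpina10), which inactivates factor Xa and factor XIa, was at 11.95, 11.97 and 11.94 in control livers with HGF, against 11.35, 11.32 and 11.30 in control livers without HGF. The control groups did not overlap, and the replicates of each lay close together. The difference was 0.63 (SE 0.27, 1.55-fold, limma adjusted p = 0.238) with the pooled spread and had an SE of 0.08 and a limma adjusted p = 0.00469 in the control groups alone. In knockout livers the gene was at 11.58, 11.04 and 12.13 with HGF, against 11.05, 11.92 and 11.12 without HGF. The range from lowest to highest value within each knockout group was wider than the difference between the control groups. The HGF effect in knockouts was 0.22 (SE 0.27, limma adjusted p above 0.99) and 0.77 (SE 0.17, limma adjusted p = 0.0418) without both replicate 2 arrays. Leaving out 1 knockout array at a time gave values from -0.06, without replicate 3 with HGF, to 0.50, without replicate 2 without HGF. Both replicate 2 arrays were picked for their place on the response index, which by itself favours a larger HGF effect.

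Cd59a was at 7.85, 7.62 and 7.28 in control livers with HGF, against 8.32, 8.55 and 8.29 in control livers without HGF, a difference of -0.80 (SE 0.19, 0.574-fold). Its limma adjusted p was 0.0871 with the pooled spread and 0.0262 in the control groups alone. In knockout livers the HGF effect on Cd59a was -0.15 (SE 0.19), with overlapping groups, and -0.42 (SE 0.18) without both replicate 2 arrays. Factor B (Cfb) was at 11.87, 11.73 and 11.61 in control livers with HGF, against 11.45, 11.30 and 11.21 in control livers without HGF, which do not overlap. Its difference of 0.42 (SE 0.22) did not pass limma (adjusted p = 0.311, and 0.0602 in the control groups alone). Cd55 was at 6.57, 6.19 and 6.15 in control livers with HGF, against 5.98, 5.84 and 5.09 in control livers without HGF (difference 0.67, SE 0.39, limma adjusted p = 0.365). These groups did not overlap, and the difference was 0.39 without control replicate 3 without HGF.

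The lectin pathway recognises microbial sugars through the mannose-binding lectins Mbl1 and Mbl2, whose partner proteases are encoded by Masp1 and Masp2. All 4 genes had negative differences with HGF in control livers, between -0.34 and -0.04, and none was called by limma. Over all tested probe sets 64.4% were negative, and the HGF arrays lay wholly below the others for 23.7%. Masp1 was at 9.22, 9.42 and 9.30 in control livers with HGF, against 9.84, 9.56 and 9.55 in control livers without HGF. These groups did not overlap (difference -0.34, SE 0.15, limma adjusted p = 0.248). Mbl2 differed by -0.27 (SE 0.12, limma adjusted p = 0.240), also without overlap.

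All 10 clotting factors had negative differences with HGF in control livers, with a median of -0.15 and a range of -0.35 to -0.01. Over all tested probe sets 64.4% were negative, with a median of -0.09. F8 was at 4.92, 5.67 and 5.21 in control livers with HGF, against 5.52, 5.64 and 5.68 in control livers without HGF (difference -0.35, SE 0.16, limma adjusted p = 0.277). These groups overlapped, and the difference was -0.17 without control replicate 1 with HGF and -0.55 without control replicate 2 with HGF. Plasma kallikrein (Klkb1), which activates factor XII, differed by -0.33 (SE 0.17), factor VII (F7), the partner of tissue factor, by -0.31 (SE 0.16) and the factor XIII carrier subunit F13b by -0.23 (SE 0.09). The HGF arrays lay below the others for each of these 3, as for 23.7% of all tested probe sets. Their limma adjusted p were 0.314, 0.314 and 0.200. Factor IX (F9, -0.01, SE 0.11) and factor V (F5, -0.01, SE 0.13) showed the smallest differences.

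**Figure D4:**
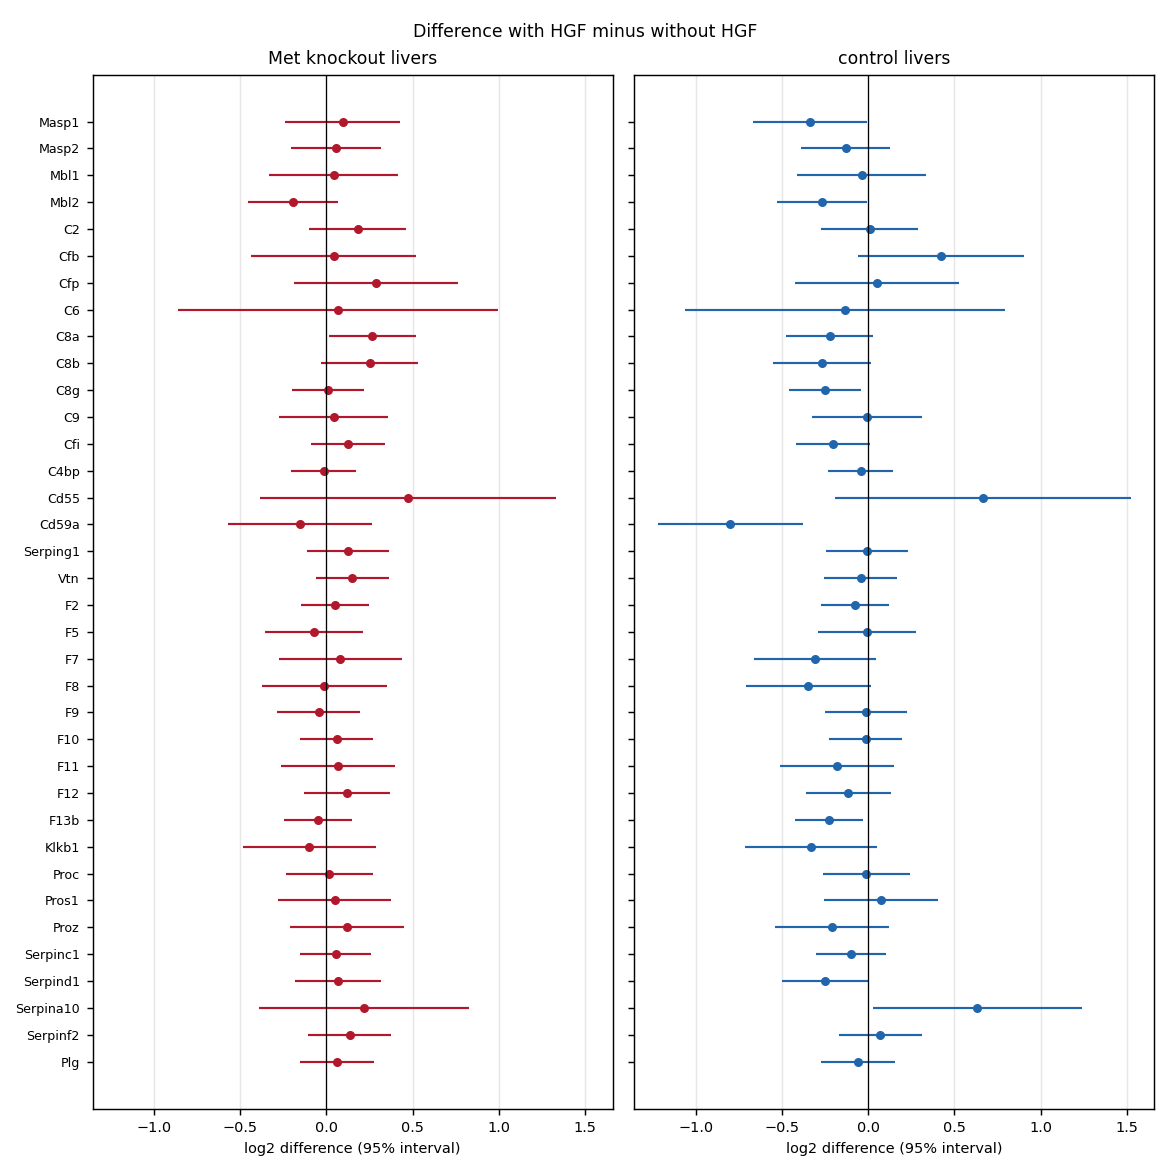
Difference with HGF minus without HGF (log2) with its 95% interval for the 36 genes in Met knockout livers (left) and control livers (right). In control livers Cd55 and Serpina10 lie at 0.67 and 0.63 and Cd59a at -0.80, whereas in knockout livers, with all 6 arrays under their labels, the values lie between -0.19 and 0.47.

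In knockout livers, limma called 0 of the 36 genes for HGF and 0% of tested probe sets. At an unadjusted p under 0.05 there was 1 higher gene, C8a (0.27, SE 0.11), and 0 lower ones, against 1.02% and 0.883% of all tested probe sets. The C8a value was 0.32 without both replicate 2 arrays. Without both replicate 2 arrays limma called 1 gene, Serpina10, and 4.16% of tested probe sets. The median was 0.06 with 28 genes positive, against -0.005 over all tested probe sets, and the values lay between -0.19 for Mbl2 and 0.47 for Cd55. With both replicate 2 arrays left out, the median was 0.05 with 21 genes positive, against -0.04 over all tested probe sets, and the values lay between -0.42 for Cd59a and 1.14 for Cd55. The 95% interval lay within a 2-fold change in either direction for 35 of 36 genes in knockouts and for 32 of 36 in controls, against 85.9% and 77.0% of all tested probe sets.

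Cd55 and Cfp had the highest values for HGF in knockouts, and both changed when single arrays were left out. Cd55 was at 5.94, 5.26 and 6.41 in knockout livers with HGF, against 4.73, 6.12 and 5.32 in knockout livers without HGF. These groups overlapped (difference 0.47, SE 0.39). Leaving out 1 knockout array at a time gave 0.15 without replicate 1 without HGF, 0.20 without replicate 3 with HGF, 0.78 without replicate 2 with HGF and 0.84 without replicate 2 without HGF. Cfp differed by 0.29 (SE 0.21), by 0.06 without knockout replicate 1 without HGF and by 0.53 without both replicate 2 arrays. Cfb was at 11.11, 10.88 and 11.48 in knockout livers with HGF, against 10.96, 11.62 and 10.78 in knockout livers without HGF. Its difference was 0.04 (SE 0.22), and 0.43 (SE 0.16) without both replicate 2 arrays.

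C8b was the 1 gene whose HGF arrays all lay above the others in knockouts and 0 genes lay below, against 2.56% and 1.24% of all tested probe sets. It was at 10.88, 10.83 and 10.88 in knockout livers with HGF, against 10.58, 10.71 and 10.56 in knockout livers without HGF. The difference was 0.25 (SE 0.13), and 0.31 without both replicate 2 arrays. In control livers the order was the opposite, with 10.56, 10.98 and 11.06 with HGF, against 11.12, 11.19 and 11.08 without HGF. C8a was at 11.83, 11.86 and 11.66 in knockout livers with HGF and 11.48, 11.69 and 11.38 without HGF, which overlap at 1 array of each group. In control livers C8a was at 11.85, 12.05 and 11.90 with HGF, against 12.18, 12.24 and 12.05 without HGF. The comparisons of HGF in controls and of genotype in unstimulated livers share the 3 unstimulated control arrays.

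The interaction, the HGF effect in knockouts minus that in controls, was called by limma for 0 of the 36 genes and 0% of tested probe sets. At an unadjusted p under 0.05, 4 genes had a positive interaction and 0 a negative one, against 5.79% and 5.04% of all tested probe sets. These were Cd59a (0.65, SE 0.27), C8b (0.52, SE 0.18), C8a (0.49, SE 0.16) and Cfi (0.33, SE 0.14), with limma adjusted p of 0.371 to 0.439. The fit without both knockout replicate 2 arrays called 0 of the 36 genes and 0.359% of tested probe sets, and the values were 0.38 for Cd59a, 0.58 for C8b, 0.54 for C8a and 0.26 for Cfi. The largest negative value was that of Serpina10 (-0.42, SE 0.39), which was 0.14 without both knockout replicate 2 arrays, -0.14 without either of them alone and -0.69 without knockout replicate 3 with HGF. Masp1 had 0.43 (SE 0.21, limma adjusted p = 0.496), and 0.31 without both knockout replicate 2 arrays. Its values were 9.55, 9.78 and 9.43 in knockout livers with HGF and 9.76, 9.44 and 9.27 in knockout livers without HGF.

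Within the knockouts, some of the genes, picked with their values in view, followed the response index of each array more than its HGF label. How many of the 36 genes and of all tested probe sets did so was not counted. The index was itself made from the other tested probe sets. Knockout replicate 3 with HGF and replicate 2 without HGF, the 2 knockout arrays near 1 on that index, were the highest knockout arrays for Serpina10, at 12.13 and 11.92, while the other 4 lay between 11.04 and 11.58. The same 2 arrays were highest for Cfb, at 11.48 and 11.62, with the others between 10.78 and 11.11, and for Cd55, at 6.41 and 6.12, with the others between 4.73 and 5.94. They were lowest for Klkb1, at 10.03 and 10.32, with the others between 10.40 and 10.78. They were also the lowest knockout arrays for Proc, Serpind1, F7 and Masp2. For Cd59a they were at 8.65 and 8.50, with the others between 8.64 and 9.08, and all 6 stayed above the 7.28 to 7.85 of control livers with HGF. Saa3, an acute phase gene, was at 12.69 and 12.62 on these 2 arrays and at 6.26 to 8.75 on the other 4 knockout arrays. Neutrophil markers (10 of 11 with a probe set, 3 tested, with Mpo and Elane among those below the filter) had a summed log2 intensity of 5.57 to 10.32 in knockouts with HGF and 5.98 to 10.33 in knockouts without HGF. That sum was 9.64 to 11.50 in control livers with HGF and 5.81 to 6.82 in control livers without HGF, and its part in these values was not tested.

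**Figure D5:**
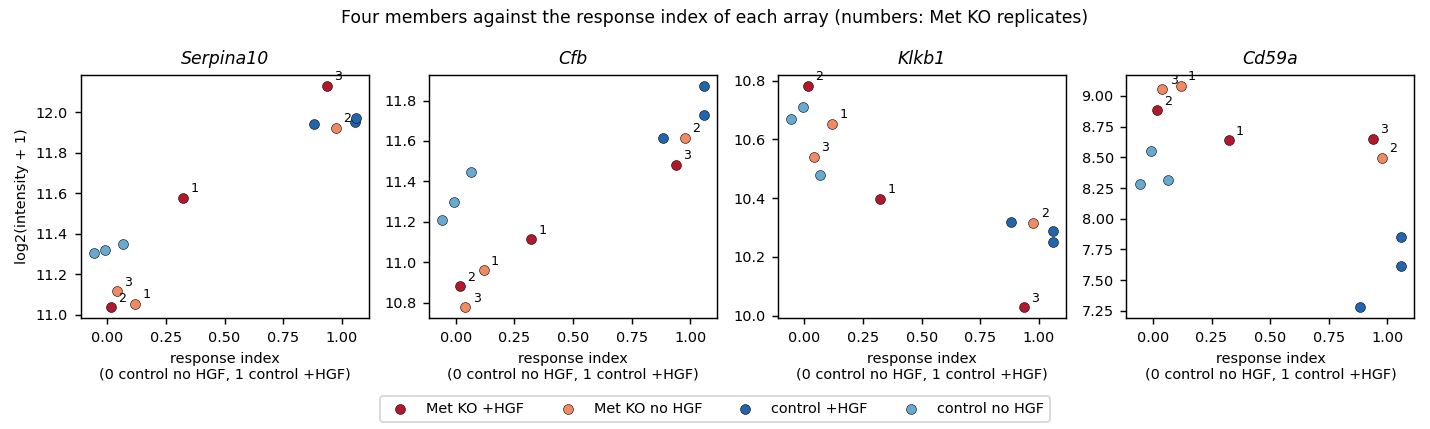
log2(intensity + 1) of Serpina10, Cfb, Klkb1 and Cd59a (vertical axes) on the 12 arrays against the response index of each array (horizontal axes), with knockout replicate numbers beside the points. Knockout replicate 3 with HGF and replicate 2 without HGF sit beside the HGF-treated controls for Serpina10 and near them for Cfb, whereas for Cd59a all 6 knockout arrays lie above the HGF-treated controls.

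Of 48 further complement, clotting and fibrinolysis genes, 38 had a probe set and 24 passed the filter, and limma called 0 of the 24 in each of the 6 comparisons. In control livers, 2 of the 24 were lower with HGF at an unadjusted p under 0.05, a share close to the 10.6% of all tested probe sets. The count of higher genes is not given. It would include Procr, which passed the filter through the group where it was high. The largest difference in control livers was that of thrombomodulin (Thbd), the endothelial cofactor of protein C activation. Thbd was at 8.48, 6.70 and 5.65 in control livers with HGF, against 3.83, 4.07 and 3.49 in control livers without HGF. Its difference was 3.15 (SE 1.22, limma adjusted p = 0.198, and 0.0272 in the control groups alone). Thbd lay near the filter value of 4 in unstimulated controls, where fold changes are uncertain. The acute phase gene Crp was higher too (1.11, SE 0.39) and the macrophage complement receptor gene Vsig4 was lower (-0.68, SE 0.23). Their limma adjusted p were 0.162 and 0.153, and 0.00145 and 0.0338 in the control groups alone. The endothelial protein C receptor gene Procr was at 4.98, 5.03 and 4.18 in control livers with HGF, against 3.45, 3.41 and 2.83 in control livers without HGF. It passed the filter through the group where it was high, so no size or test is given for it.

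The gene of protein C itself did not share the Thbd difference. Proc, the gene for the zymogen that Thbd and Procr help to activate, was at 11.72, 11.66 and 11.67 in control livers with HGF, against 11.73, 11.69 and 11.68 in control livers without HGF (difference -0.01, 95% interval -0.27 to 0.24). Its cofactor protein S (Pros1) differed by 0.07 (SE 0.15). In unstimulated livers, complement component C5 (Hc) was at 11.34, 11.59 and 11.02 in knockouts, against 12.17, 12.14 and 11.98 in controls, which do not overlap. Its difference was -0.78 (SE 0.17, limma adjusted p = 0.124), and -0.91 (limma adjusted p = 0.0345) without both knockout replicate 2 arrays. The gene of the vitamin K-dependent carboxylase, Ggcx, which modifies several clotting factors, had a lower mean in unstimulated knockouts (-0.66, SE 0.19, limma adjusted p = 0.244).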

How the data were processed

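Liver RNA of 12 mice was hybridised to Affymetrix arrays. The authors deposited probe set intensities on a linear scale, as read from the values, made with GCRMA (version not stated) per the submitters' processing notes. GCRMA subtracts a background estimated from base composition and normalizes between arrays, which can hide a shift common to most transcripts and compress signals near background. The table held 16539 rows, of which 64 were array controls. Of the others, 15780 had 1 gene symbol in the platform annotation and 695 had none.

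Values were analysed as log2(intensity + 1). Probe sets at 4 or above on at least 3 arrays were tested (6683). Group means were modelled by limma 3.58.1, run in R 4.3.3, over all 4 groups (8 residual degrees of freedom), two-sided, and the fit was tested on simulated data. The number of arrays limits the precision, with a median SE of 0.12 for the genes described and 0.18 for all tested. Values in every array of a comparison are given for the 5 genes with its largest changes and for genes called without array weights. Other genes given in full were picked with their values in view. The genes, lists and the doubted arrays were chosen with earlier results of these data known. Same-numbered arrays of a genotype did not deviate together (r of -0.83 to 0.18), so numbers were not taken as pairs.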

Additional observations from a re-analysis of the deposited data

Results flagged for a closer look

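C8b moved in opposite directions with HGF in the 2 genotypes, with no overlap between arrays in either: all 3 HGF arrays lay above the others in knockouts and below them in controls. The interaction was 0.52 (SE 0.18, limma adjusted p = 0.384), so the test of the difference did not pass over all tested probe sets. Such opposite moves occurred in 62 tested probe sets (0.928%). In control livers the lowest HGF value, 10.56 in replicate 1, lay apart from the other 2, at 10.98 and 11.06. Without both knockout replicate 2 arrays the interaction of C8b was 0.58.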

How the results depend on the processing

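The count of called genes among the 36 was 0 in all 6 comparisons and stayed at 0 with a pseudocount of 16, no filter, a filter at 6, quantile normalization, a trended robust spread and the replicate block, also within genotype for the HGF effects and the interaction. Array weights, whose estimation stopped before its tolerance was reached, gave 6 called genes for HGF in controls (20.2% of all tested probe sets), 6 for knockout without HGF (9.53%), 2 for knockout with HGF (4.34%), 7 for the averaged knockout effect (8.53%) and 1 for the interaction (4.01%). These weights for knockout replicates 1 to 3 were 2.83, 0.46 and 0.38 with HGF and 2.72, 0.24 and 0.45 without it. The weighted knockout means thus leaned on replicate 1. The 2 control groups alone gave 2 for HGF. Without both knockout replicate 2 arrays, a setting added with the data known, the counts were 2 for HGF in controls, 1 for HGF in knockouts, 2 for knockout without HGF and 2 for the averaged knockout effect. Leaving out single arrays gave 0 to 1 for HGF in controls and 0 to 1 for the averaged knockout effect, the 1 being Cd59a without knockout replicate 2 without HGF, and 0 in the other 4 comparisons. Of 633 values of the 5 leading genes per comparison under these alternatives, 631 kept their sign, and the other 2 were of Serpina10, for HGF in knockouts (-0.06 without knockout replicate 3 with HGF) and for the interaction (0.14 without both knockout replicate 2 arrays); the causes were not tested. Cd55 and F8 lay closest to the filter value, and no setting measured what that costs in precision.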
